A study of Homo sapiens with 18 samples.

Results

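Kinesins are motor proteins that walk along microtubules using the energy of ATP. The family was taken as every protein-coding gene whose symbol begins with KIF or KIFC followed by a digit, which gave 43 of the 58395 genes in the deposited tables. 42 of them encode kinesins, among them the atypical KIF26A and KIF26B, and 1, KIF1BP, encodes a protein that binds kinesins. By known role, 10 were spindle and chromosome motors, 4 cytokinesis motors, 17 transport motors, 7 motors of cilia, centrioles or signalling, and 5 were other members. Together the spindle, chromosome and cytokinesis motors are called the 14 mitotic motors below. CENPE, a kinetochore kinesin with another kind of symbol, is outside the rule and is given among the partner genes.

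Mitotic kinesins build the bipolar spindle, move and align chromosomes, trim microtubule ends and organise the midzone where the cell divides. Their transcripts are made mainly in the late part of the cell cycle, so a dividing cell line has many of them. Transport kinesins carry vesicles, mitochondria, endosomes and ciliary cargo, usually towards the growing ends of microtubules, and are present in dividing and resting cells.

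The RNA came from a pair of human cancer cell lines, the ovarian line HeyA8 and the prostate line PC3, each labelled wild type in genotype. Cells in 6-well plates were given 10 nM of sNT8, sG5C or sCAG with the lipid reagent RNAiMax, and total RNA was taken after 48 h. The series title speaks of short RNAs inducing DISE, which kills cells; the deposited tables use sNT8 as the reference. The 6 groups were HeyA8 sNT8, HeyA8 sG5C, HeyA8 sCAG, PC3 sNT8, PC3 sG5C and PC3 sCAG, with 3 libraries each, lettered A to C. Titles of the sG5C libraries carry the name Mxy, and the treatment field was used. The labels do not say that the 3 libraries of a group came from separate cultures, so p-values measure the spread between these libraries, which may be technical.

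Between 31232377 and 41384838 reads fell on genes in a library. Levels are given as CPM, read counts scaled to a common depth with TMM factors over all 18 libraries, and values of a group are listed in the order A, B, C. The HeyA8 libraries held PAX8, an ovarian and Mullerian marker, at 372 CPM on average with sNT8, 141 with sG5C and 453 with sCAG, and MUC16, an ovarian cancer antigen, at 0 with sNT8. The PC3 libraries held HOXB13, a prostate marker, at 219.7, 40.7 and 217 CPM in the same order, while KLK3 was at 0 in every library. The leukocyte markers PTPRC, CD3E and CD14 summed to at most 0.846 CPM in any library. The endothelial markers PECAM1, CDH5 and VWF summed to 75.1 to 81.9 CPM in HeyA8 sNT8, 58.2 to 59.7 with sG5C and 19.4 to 20.6 with sCAG, mostly CDH5, and to 23.6 to 39.7 CPM in PC3. Their part in the results was not tested.

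Genes of the late cell cycle are known for promoters that carry a CHR element, bound by the repressor complex DREAM, and CCAAT boxes, bound by NF-Y. RefSeq promoters (GRCh38.p14, 250 bases before to 50 after the start) were found for 35 of the 43 members and searched on both strands for TTTGAA or TTCGAA (CHR-type) and CCAAT. A CHR-type match was in 11 of 14 mitotic promoters (78.6 percent), 2 of 21 other kinesin promoters (9.52 percent) and 13.5 percent of 15842 protein-coding promoters. CCAAT was in 78.6, 33.3 and 36.4 percent, and both motifs together in 10 of 14 (71.4 percent), 2 of 21 (9.52 percent) and 5.57 percent. E2F-type letters (TTCCCGC or TTGGCGC) were in 3 of 14, 4 of 21 and 12.3 percent. A match describes letters and not binding.

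The promoters below run from 150 bases before to 20 after the start, 5′ to 3′ along the gene. KIF18B, KIF20A, KIF4A and KIFC1 are shown because they had the 4 largest falls after sCAG in HeyA8, KIF23 as a cytokinesis motor with both motifs, and KIF5B as a transport motor with both. Capitals mark CHR-type and CCAAT matches, written as TTCAAA and ATTGG where the match is on the other strand.
KIF18B promoter, chr17:44947754-44947923, minus strand: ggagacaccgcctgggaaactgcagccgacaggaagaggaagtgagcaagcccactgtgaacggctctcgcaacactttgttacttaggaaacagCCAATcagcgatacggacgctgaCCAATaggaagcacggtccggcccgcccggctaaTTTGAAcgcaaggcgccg
KIF20A promoter, chr5:138178962-138179131, plus strand: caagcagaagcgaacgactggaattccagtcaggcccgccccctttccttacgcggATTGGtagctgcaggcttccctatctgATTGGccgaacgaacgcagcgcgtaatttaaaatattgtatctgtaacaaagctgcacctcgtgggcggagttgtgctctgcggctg
KIF4A promoter, chrX:70289954-70290123, plus strand: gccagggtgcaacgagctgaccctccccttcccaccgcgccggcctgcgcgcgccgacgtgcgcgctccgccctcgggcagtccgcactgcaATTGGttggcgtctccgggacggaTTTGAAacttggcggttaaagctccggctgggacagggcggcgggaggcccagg
KIFC1 promoter, chr6:33391673-33391842, plus strand: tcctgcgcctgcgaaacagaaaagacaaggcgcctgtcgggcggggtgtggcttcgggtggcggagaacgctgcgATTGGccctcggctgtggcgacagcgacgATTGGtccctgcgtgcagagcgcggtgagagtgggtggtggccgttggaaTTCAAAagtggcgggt
KIF23 promoter, chr15:69414199-69414368, plus strand: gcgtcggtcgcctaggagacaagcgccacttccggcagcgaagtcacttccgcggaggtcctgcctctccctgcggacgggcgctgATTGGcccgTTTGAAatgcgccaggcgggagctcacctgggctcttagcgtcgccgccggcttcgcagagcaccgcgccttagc
KIF5B promoter, chr10:32056406-32056575, minus strand: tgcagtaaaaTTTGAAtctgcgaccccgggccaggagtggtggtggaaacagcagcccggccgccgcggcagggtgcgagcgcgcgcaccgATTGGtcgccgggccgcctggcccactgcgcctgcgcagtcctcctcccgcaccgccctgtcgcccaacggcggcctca
KIF18B, KIFC1, KIF4A and KIF23 have both motifs within this stretch. KIF20A, a mitotic gene, has a pair of CCAAT boxes and no CHR-type match. KIF5B, a transport motor, has both, with the CHR-type match far upstream of the CCAAT box. KIF24, a centriole motor, was the other gene outside the mitotic group with both motifs.

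In the sNT8 controls, levels were compared per kilobase of exon. KIF5B, the ubiquitous heavy chain of conventional kinesin, was the highest member in both lines, at 71.5 ± 0.549 CPM per kb in HeyA8 and 29.7 ± 0.956 in PC3 (SD, n = 3). In HeyA8 it was followed by KIF2C at 50.8 ± 1.001, KIF20A at 43.5 ± 2.11, KIF11 at 35.1 ± 0.723 and KIF2A at 30.9 ± 1.18 CPM per kb, each step larger than the SDs. KIFC1 at 26.4 ± 1.52 and KIF18B at 25.99 ± 0.801 differed by less than their SDs. In PC3, KIF18B was next at 27.8 ± 1.10, below KIF5B by more than either SD, though their SD bars overlapped. KIF3B, KIF11, KIF4A and KIF1C followed between 22.6 and 23.2 CPM per kb without differing beyond their SDs. At the low end, KIF17 stood at 0.0810 ± 0.00213 CPM per kb in HeyA8 and 0.603 ± 0.157 in PC3.

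**Figure D1:**
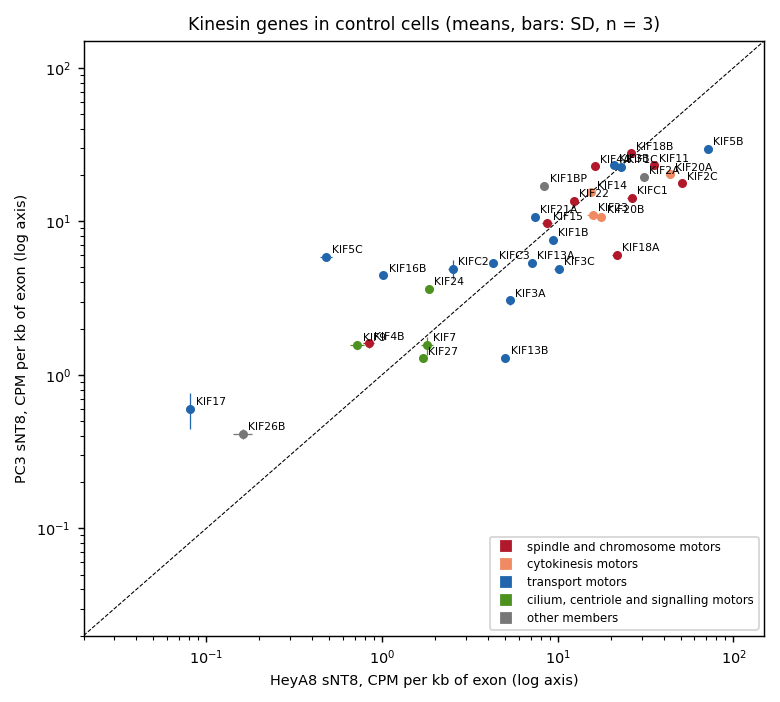
Mean level of each kinesin gene in HeyA8 sNT8 (x axis) and PC3 sNT8 (y axis), CPM per kb of exon on log axes, with SD bars over 3 libraries and the line of equal levels; genes under 0.02 CPM per kb in either line are not drawn. KIF5C, KIF16B and KIF9 lie above the line, KIF13B and KIF18A below it, and KIF5B is highest in both.

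Between the control lines, 16 kinesin genes were lower in PC3 and 17 higher, of 38 tested (edgeR quasi-likelihood test, adjusted p under 0.05 over all genes). Of all genes tested, 71.3 percent were called, 32.8 percent lower and 38.6 percent higher. The kinesin shares, 42.1 percent lower and 44.7 percent higher, lay above these and include calls that follow from the filter, as given below. The line cannot be told apart from any difference in preparation between the lines, since each line has its own libraries. Each PC3 library also has a prefix in 1 of its 2 names that the HeyA8 names lack. Whether that prefix marks a batch is not known. KIF18A, which damps chromosome movements at metaphase, was 3.62-fold lower in PC3 (log2 -1.85 ± 0.064 SE, adjusted p = 4e-24). KIF2C, a depolymerase at centromeres, was 2.90-fold lower, and KIF13B, which moves scaffold proteins, 3.91-fold lower. KIF5C, a conventional kinesin heavy chain best known from neurons, was 12.1-fold higher in PC3 (log2 3.60 ± 0.081, adjusted p = 9.98e-30), and KIF16B, a motor of early endosomes, 4.36-fold higher. KIF21B, a motor that regulates microtubule growth, read 8.997, 11.00 and 9.61 CPM in HeyA8 and 0.203, 0.0286 and 0.109 in PC3. KIF26A, an atypical kinesin, had 0 reads in all 9 HeyA8 libraries and 2.24, 2.003 and 2.37 CPM in PC3 sNT8. KIF26A, KIF12 and KIF6 passed the low-count filter only through PC3, so their calls as higher there follow from the filter and their fitted folds are not given. Among the control groups only HeyA8 carried KIF21B past it, so its call as lower in PC3 is read with the same limit.

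After sCAG, every measured mitotic motor fell in both lines. The 13 in HeyA8 had a median log2 change of -5.30 and a range from -7.16 for KIF18B to -2.02 for KIF18A, against a median of 0.01 over all genes tested. All 13 also fell in PC3, with a median of -1.62 and a range from -1.93 for KIFC1 to -0.67 for KIF18A, against -0.00 over all genes. Adjusted p was at most 5.28e-13 in HeyA8 and 1.07e-08 in PC3 (limma, Benjamini-Hochberg over all genes). KIF2B, the remaining mitotic member, had at most 1 read in any library. KIF4B, counted among the 13 and in the family counts below, passed the low-count filter in HeyA8 only through its sNT8 libraries. Its HeyA8 call as lower is read with that limit. Of the whole family, 26 members were lower and 7 higher of 35 tested in HeyA8, where 59.3 percent of all genes were called, 30 percent lower and 29.3 percent higher. In PC3, 23 were lower and 5 higher of 35, where 50.5 percent of all genes were called, 23.1 percent lower and 27.4 percent higher. In bulk RNA, fewer dividing cells and less of a transcript per cell cannot be told apart.

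**Figure D2:**
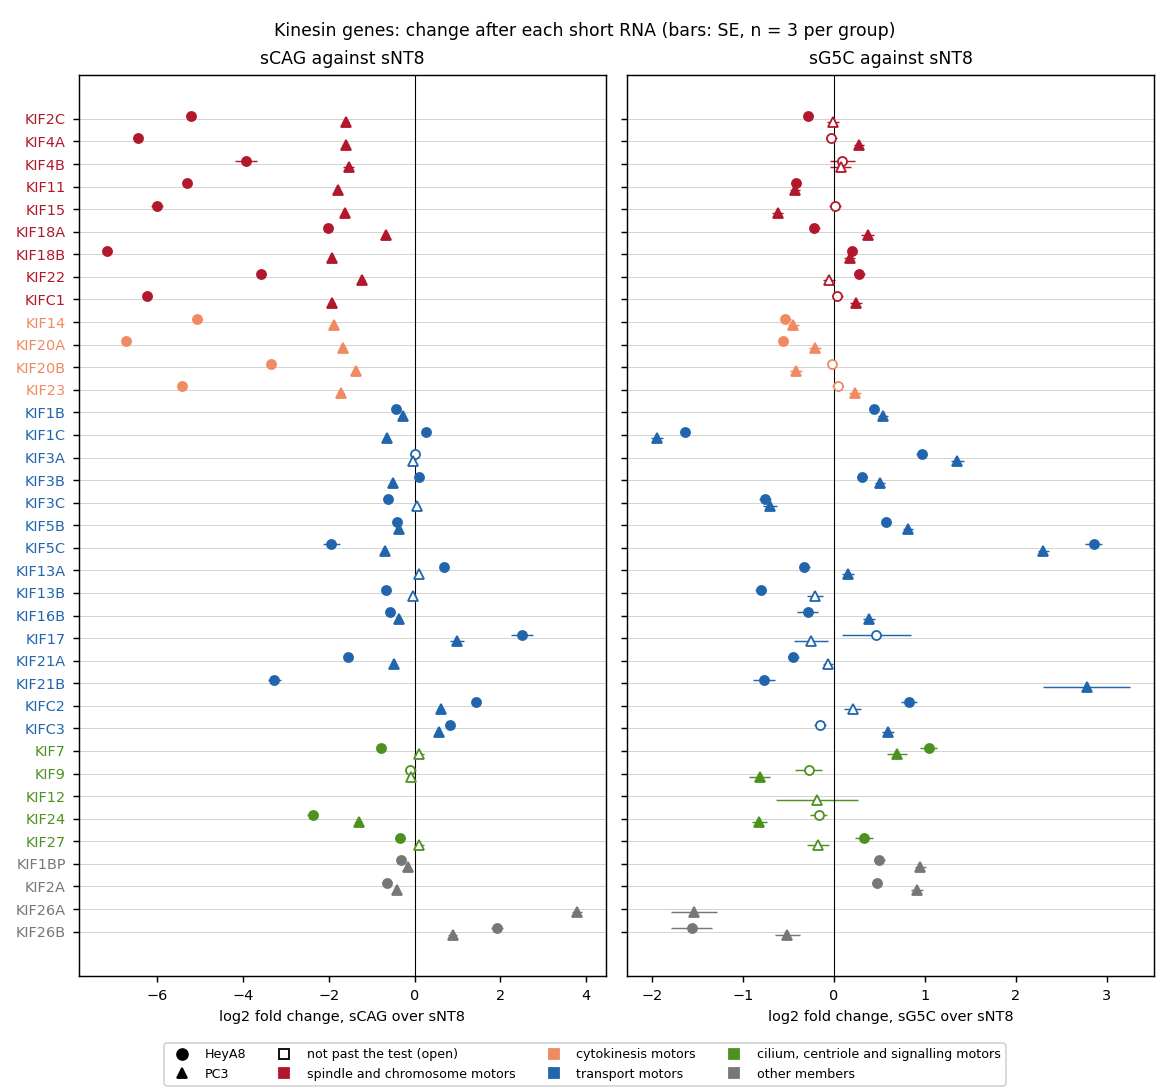
Log2 fold change of each tested kinesin gene (y axis) after sCAG (left) and sG5C (right) against sNT8, circles for HeyA8 and triangles for PC3, bars for SE, filled where adjusted p is under 0.05, coloured by role. After sCAG the mitotic motors lie left of 0 in both lines and further left in HeyA8, from -7.16 to -2.02 against -1.93 to -0.67 in PC3; after sG5C they lie between -0.62 and 0.37.

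KIF11, also called Eg5, slides microtubules apart to separate the spindle poles (hg38, chromosome 10, 92593286 to 92655395). In HeyA8 it read 169.7, 175 and 168 CPM with sNT8 and 4.55, 4.75 and 3.99 CPM with sCAG. In PC3 it read 111, 115 and 113 CPM with sNT8 and 35.7, 35.8 and 31.1 CPM with sCAG. Every sCAG library lay below every sNT8 library, and the fall was 39.4-fold in HeyA8 (log2 -5.30 ± 0.070 SE, adjusted p = 4.99e-28) and 3.44-fold in PC3 (-1.78 ± 0.056, adjusted p = 4.88e-18). KIF15 can keep the spindle bipolar beside KIF11. Its HeyA8 libraries read 48.99, 46.4 and 42.6 CPM with sNT8 and 0.641, 0.594 and 0.914 CPM with sCAG. Its PC3 libraries read 50.9, 51.1 and 51.5 CPM with sNT8 and 16.2, 19.99 and 16.1 CPM with sCAG. The groups did not overlap in either line, and the falls were 64.1-fold and 3.07-fold. KIFC1, a minus-end motor that clusters extra centrosomes, read 89.3, 93.1 and 83.01 CPM with sNT8 and 1.03, 1.12 and 1.42 CPM with sCAG in HeyA8. In PC3 KIFC1 read 46.8, 49.8 and 45.99 CPM with sNT8 and 13.2, 13.9 and 11.8 CPM with sCAG. It fell 74.9-fold in HeyA8 and 3.82-fold in PC3, where no other member fell further.

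KIF18B, which shortens astral microtubules (hg38, chromosome 17, 44924709 to 44947711), had the largest fall of the family in HeyA8. It read 122, 124 and 117 CPM with sNT8 and 0.801, 1.02 and 0.711 CPM with sCAG there. In PC3 KIF18B read 134, 124 and 129.7 CPM with sNT8 and 34.98, 37.2 and 34.6 CPM with sCAG. The controls of the lines were alike for this gene, and the sCAG libraries were 143-fold lower in HeyA8 (log2 -7.16 ± 0.11, adjusted p = 7.67e-26) and 3.78-fold lower in PC3 (-1.92 ± 0.051, adjusted p = 2.57e-19). KIF4A is a chromokinesin that shapes chromosomes and the spindle midzone. KIF4A read 76.7, 73.2 and 71.5 CPM with sNT8 and 0.737, 0.792 and 0.981 CPM with sCAG in HeyA8. In PC3 KIF4A read 105, 102 and 103 CPM with sNT8 and 36.7, 36.6 and 33.3 CPM with sCAG. Its falls were 87.8-fold and 3.03-fold, with no overlap. KIF4B, a near copy of it, averaged 3.67 ± 0.268 CPM (SD) in HeyA8 sNT8 and 0.220 ± 0.0387 with sCAG, which is under the filter minimum. The KIF4A and KIF4B coding sequences are 95.7 percent identical, so the split of reads between them is uncertain.

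KIF2C removes tubulin from microtubule ends at centromeres. KIF2C read 189, 184 and 182 CPM with sNT8 and 5.58, 4.72 and 5.04 CPM with sCAG in HeyA8. In PC3 KIF2C read 65.1, 65.6 and 62.1 CPM with sNT8 and 22.1, 22.8 and 21.6 CPM with sCAG. It fell 37.03-fold and 3.02-fold without overlap. KIF22, the chromokinesin Kid, pushes chromosome arms from the poles. In HeyA8 KIF22 read 54.3, 52.2 and 52.9 CPM with sNT8 and 4.65, 3.93 and 5.01 CPM with sCAG. In PC3 KIF22 read 60.7, 57.05 and 57.6 CPM with sNT8 and 25.98, 26.5 and 26.02 CPM with sCAG. Its falls of 12.02-fold and 2.32-fold were smaller than those of most mitotic members in each line. KIF18A fell least of the 13. KIF18A read 107, 102 and 94.96 CPM with sNT8 and 24.1, 28.98 and 23.5 CPM with sCAG in HeyA8. In PC3 KIF18A read 27.8, 29.3 and 27.3 CPM with sNT8 and 18.8, 18.5 and 17.8 CPM with sCAG. All sCAG libraries were again below all controls, 4.07-fold in HeyA8 (log2 -2.02 ± 0.070, adjusted p = 1.79e-16) and 1.59-fold in PC3 (-0.67 ± 0.068, adjusted p = 1.07e-08). Reads of KIF22 and KIFC1 include exon stretches shared with another gene, 13 and 12.7 percent of their exon bases; whether counting used strand was not stated in these sources. In all, 11 members have over 5 percent of their exon bases inside another gene, from 5.05 percent for KIF20A to 17.9 percent for KIF9, and reads there cannot be assigned with certainty.

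**Figure D3:**
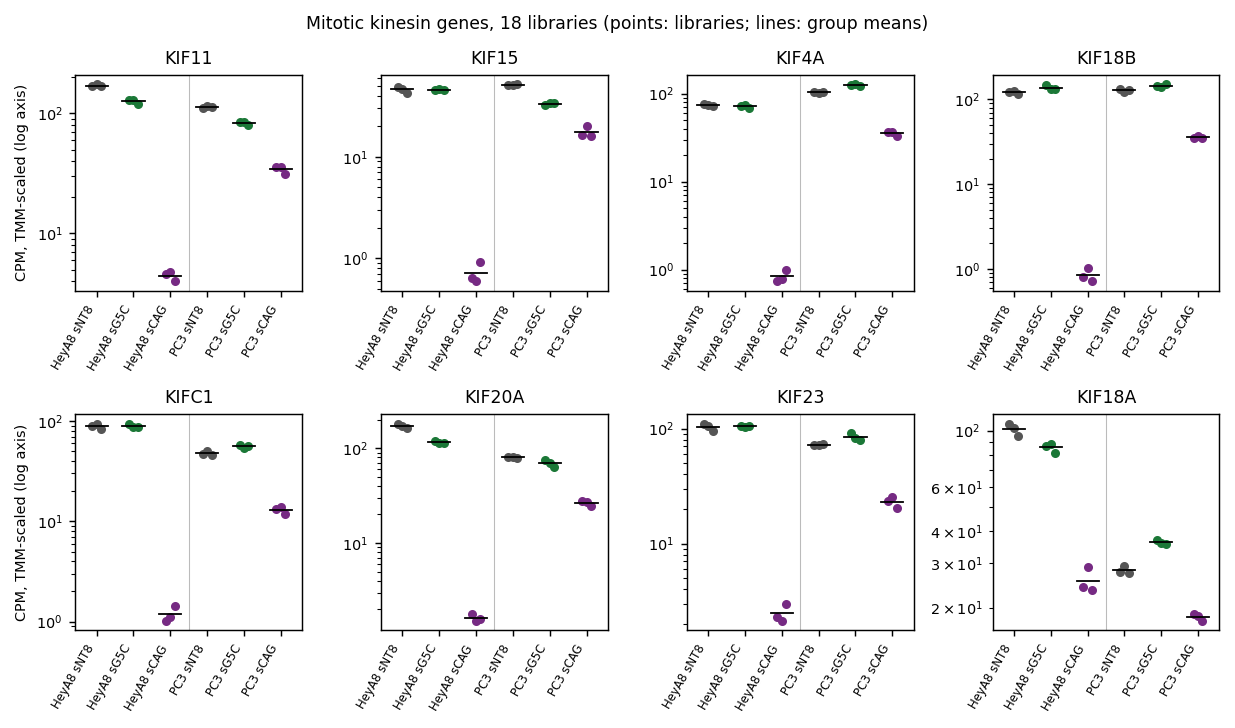
Level of 8 mitotic kinesin genes in each of the 18 libraries (CPM, TMM-scaled, log axis), points for libraries and lines for group means. In every panel the 3 sCAG libraries of a line lie below its sNT8 libraries, near 1 CPM for KIF15, KIF4A, KIF18B and KIFC1 in HeyA8.

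The cytokinesis motors fell as well. KIF20A carries the chromosomal passenger complex to the midzone. KIF20A read 181, 171 and 165 CPM with sNT8 and 1.79, 1.52 and 1.59 CPM with sCAG in HeyA8. In PC3 KIF20A read 80.8, 80.5 and 79.1 CPM with sNT8 and 27.6, 27.1 and 24.7 CPM with sCAG. The groups did not overlap, and the fall was 106-fold in HeyA8 (log2 -6.73 ± 0.082, adjusted p = 1.07e-28) and 3.16-fold in PC3. KIF23 forms centralspindlin with RACGAP1 and bundles midzone microtubules. In HeyA8 KIF23 read 110.3, 105 and 95.2 CPM with sNT8 and 2.31, 2.15 and 2.98 CPM with sCAG. In PC3 KIF23 read 72.2, 72.1 and 72.8 CPM with sNT8 and 23.4, 25.4 and 20.6 CPM with sCAG. It fell 42.8-fold and 3.27-fold. KIF14 holds citron kinase at the midbody. In HeyA8 KIF14 read 116, 116 and 108 CPM with sNT8 and 4.33, 3.17 and 2.91 CPM with sCAG. In PC3 KIF14 read 108, 118 and 111 CPM with sNT8 and 32.4, 33.9 and 29.4 CPM with sCAG. Its falls were 33.6-fold and 3.67-fold. KIF20B, needed for the last stage of division, kept more transcript. In HeyA8 KIF20B read 126, 121 and 117 CPM with sNT8 and 12.8, 11.8 and 11.8 CPM with sCAG. In PC3 KIF20B read 75.2, 69.8 and 74.1 CPM with sNT8 and 32.3, 28.3 and 28.5 CPM with sCAG. The sCAG libraries lay 10.2-fold and 2.56-fold below the controls.

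The difference between lines was tested directly. After sCAG, all 13 measured mitotic motors fell further in HeyA8 than in PC3, with a PC3-minus-HeyA8 difference in log2 fold change from 1.37 for KIF18A to 5.29 for KIF18B (adjusted p at most 2.87e-09, edgeR over 18 libraries). Over all genes, 37.1 percent had a difference that passed the test, 15 percent negative and 22.1 percent positive, and over the family 7 and 23 of 38. The 23 include KIF21B, which was near the count floor in PC3, and KIF4B, which was near it in HeyA8 sCAG. For KIF20A the difference was 5.11 ± 0.11 (SE), for KIF4A 4.92 ± 0.12 and for KIF15 4.44 ± 0.16. The proliferation markers MKI67 and TOP2A moved with these genes, their summed level lying at 1376 to 1494 CPM in HeyA8 sNT8 and 11.8 to 12.7 in HeyA8 sCAG, and at 746 to 748 and 208 to 231 in PC3. MKI67 averaged 792 ± 52.4 CPM (SD) with sNT8, 502 ± 19.6 with sG5C and 7.49 ± 0.436 with sCAG in HeyA8. In PC3 MKI67 averaged 409.8 ± 4.68, 288 ± 9.19 and 103 ± 5.28 CPM. TOP2A, a topoisomerase of dividing cells, went from 662 ± 15.2 CPM with sNT8 to 4.68 ± 0.258 with sCAG in HeyA8 and from 337 ± 5.38 to 121 ± 9.36 in PC3. With sG5C, TOP2A did not fall with MKI67. The summed level of both markers with sG5C was 1214 to 1289 CPM in HeyA8 and 715 to 757 in PC3. Their part in the result was not tested.

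The transport motors did not move together after sCAG. In HeyA8, 8 of 15 fell and 6 rose, and the median log2 change was -0.41, where 30 percent of all genes fell and 29.3 percent rose. In PC3, 7 of 14 fell and 3 rose, with a median of -0.15, where 23.1 percent of all genes fell and 27.4 percent rose. KIF5C, KIF21A, KIF5B, KIF16B and KIF1B fell in both lines, while KIF17, KIFC2 and KIFC3 rose in both.

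KIF21A, which restrains microtubule growth at the cell cortex, read 78.1, 73.6 and 72.99 CPM with sNT8 and 26.8, 27.6 and 24.2 CPM with sCAG in HeyA8. In PC3 KIF21A read 108, 112 and 105 CPM with sNT8 and 80.3, 83.6 and 78.5 CPM with sCAG. The sCAG libraries were lower in both lines without overlap, 2.94-fold (log2 -1.55 ± 0.061, adjusted p = 7.77e-18) and 1.40-fold (-0.48 ± 0.048, adjusted p = 6.71e-09). KIF21B, its close relative, read 0.929, 1.16 and 0.981 CPM in HeyA8 sCAG, 9.64-fold below the control values given above. In PC3 it read 0.105, 0.0510 and 0.250 CPM with sCAG and did not pass the filter. KIF5C read 4.47, 4.77 and 4.06 CPM with sNT8 and 0.897, 1.29 and 1.35 CPM with sCAG in HeyA8. In PC3 KIF5C read 55.1, 55.2 and 51.1 CPM with sNT8 and 36.4, 36.9 and 31.3 CPM with sCAG. It fell 3.83-fold and 1.61-fold. KIF5B, the main conventional kinesin of these cells, read 424, 419.6 and 418 CPM with sNT8 and 322, 327 and 325 CPM with sCAG in HeyA8. In PC3 KIF5B read 181, 172 and 170.5 CPM with sNT8 and 145, 137 and 141 CPM with sCAG. These falls were small, 1.33-fold and 1.28-fold, but no sCAG library reached a control.

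KIF16B, which carries early endosomes, read 8.28, 7.41 and 7.82 CPM with sNT8 and 6.09, 5.15 and 5.08 CPM with sCAG in HeyA8. In PC3 KIF16B read 34.1, 35.9 and 33.1 CPM with sNT8 and 30.1, 28.9 and 25.3 CPM with sCAG. It fell by a log2 change of -0.56 ± 0.12 and -0.35 ± 0.068. KIF1B, a carrier of mitochondria and synaptic vesicle precursors, read 171, 160.2 and 167 CPM with sNT8 and 127, 119 and 133 CPM with sCAG in HeyA8. In PC3 KIF1B read 133, 136 and 134 CPM with sNT8 and 113, 117 and 116 CPM with sCAG. Its log2 changes were -0.43 ± 0.049 and -0.27 ± 0.044, again without overlap. KIF13B read 58.3, 54.1 and 55.3 CPM with sNT8 and 37.1, 34.3 and 36.8 CPM with sCAG in HeyA8, a fall of 1.59-fold. In PC3 KIF13B read 14.1, 14.2 and 14.8 CPM with sNT8 and 14.9, 13.8 and 15.03 CPM with sCAG, and the groups overlapped.

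Among the members that rose, KIF26B, an atypical kinesin without motor activity known from kidney development, read 2.66, 2.24 and 2.09 CPM with sNT8 and 8.36, 8.88 and 10.3 CPM with sCAG in HeyA8. In PC3 KIF26B read 6.41, 5.49 and 5.85 CPM with sNT8 and 11.8, 11.96 and 10.5 CPM with sCAG. All sCAG libraries were above all controls, 3.82-fold in HeyA8 (log2 1.93 ± 0.14, adjusted p = 3.21e-12) and 1.85-fold in PC3 (0.89 ± 0.10, adjusted p = 9.22e-08). Its relative KIF26A, at 0 in HeyA8, read 28.8, 28.8 and 38.5 CPM in PC3 sCAG, 13.7-fold above the control on the log2 scale with a pseudocount of 1 (log2 3.78 ± 0.12, adjusted p = 6.38e-18). Library C was the highest of the PC3 sCAG libraries, and all were far above the controls. KIFC2, a minus-end motor known from dendrites, read 10.7, 11.9 and 10.98 CPM with sNT8 and 29.6, 30.8 and 32.7 CPM with sCAG in HeyA8. In PC3 KIFC2 read 25.3, 19.6 and 20.3 CPM with sNT8 and 33.7, 35.3 and 33.7 CPM with sCAG. It rose 2.70-fold and 1.52-fold, but 17.8 percent of its exon bases lie in FOXH1 on the other strand. KIFC3, a minus-end motor of the Golgi and of cell junctions, read 38.8, 42.5 and 42.6 CPM with sNT8 and 70.4, 75.3 and 77.96 CPM with sCAG in HeyA8. In PC3 KIFC3 read 54.99, 49.3 and 50.3 CPM with sNT8 and 77.7, 80.7 and 79.1 CPM with sCAG. Its rises were 1.76-fold and 1.48-fold, without overlap.

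KIF17, a ciliary and dendritic kinesin-2, was low. It read 0.357, 0.373 and 0.357 CPM with sNT8 and 2.40, 2.24 and 2.13 CPM with sCAG in HeyA8, a log2 change of 2.51 ± 0.26. In PC3 KIF17 read 3.33, 1.95 and 2.80 CPM with sNT8 and 5.31, 5.35 and 5.72 CPM with sCAG, a change of 0.99 ± 0.16. KIF13A, a motor of recycling endosomes, read 82.8, 75.2 and 80.05 CPM with sNT8 and 131, 127 and 139 CPM with sCAG in HeyA8, a rise of 1.62-fold. In PC3 KIF13A read 58.4, 58.96 and 61.00 CPM with sNT8 and 67.3, 65.6 and 67.7 CPM with sCAG (log2 0.11 ± 0.050, adjusted p = 0.0678). The PC3 groups did not overlap, yet the change missed the threshold. With the replicate letter as a block its adjusted p was 0.0478, and it was 0.0478 to 0.33 over 15 alternatives.

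KIF1C and KIF3B differed in direction between the lines. KIF1C, a vesicle motor that also acts at the Golgi and at podosomes (hg38, chromosome 17, 4997948 to 5028401), read 198, 195 and 199.6 CPM with sNT8 and 239, 236 and 254 CPM with sCAG in HeyA8. In PC3 KIF1C read 205, 189.5 and 187 CPM with sNT8 and 129, 129 and 128 CPM with sCAG. It rose by 0.26 ± 0.043 on the log2 scale in HeyA8 and changed by -0.65 ± 0.045 in PC3, a difference of -0.90 ± 0.067 (adjusted p = 2.23e-13). KIF3B, a subunit of heterotrimeric kinesin-2, read 132, 126 and 125 CPM with sNT8 and 143, 141 and 139 CPM with sCAG in HeyA8. In PC3 KIF3B read 136, 143 and 146 CPM with sNT8 and 100.03, 108 and 106 CPM with sCAG. Its changes were 0.11 ± 0.045 and -0.50 ± 0.047, and the difference between lines was -0.59 ± 0.069 (adjusted p = 6.9e-09). The small HeyA8 rise of KIF3B (adjusted p = 0.0366) became -0.0101 with scaling by library totals alone. It missed the threshold when any of 5 of the 6 libraries was left out (adjusted p of 0.0088 to 0.836 over 15 alternatives). Its partner KIF3A did not pass the test in either line (0.01 ± 0.060 and -0.03 ± 0.072). KIF3A read 39.5, 38.2 and 35.2 CPM with sCAG in HeyA8 and 21.2, 21.4 and 21.2 in PC3.

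Of the cilium, centriole and signalling motors, 3 of 4 measured fell in HeyA8 and 1 of 4 in PC3 after sCAG, against 30 and 23.1 percent of all genes, so the PC3 share was near the background. KIF24, a microtubule depolymerase that restrains cilium formation at the mother centriole, fell in both. KIF24 read 11.7, 11.2 and 11.1 CPM with sNT8 and 2.44, 2.08 and 2.13 CPM with sCAG in HeyA8. In PC3 KIF24 read 20.8, 22.9 and 23.3 CPM with sNT8 and 9.86, 9.51 and 8.94 CPM with sCAG. The groups did not overlap, with falls of 5.19-fold (adjusted p = 5.3e-15) and 2.46-fold (adjusted p = 2.25e-12). KIF7, which organises the cilium tip for Hedgehog signalling, read 8.34, 9.76 and 9.004 CPM with sNT8 and 5.19, 5.22 and 5.68 CPM with sCAG in HeyA8. In PC3 KIF7 read 8.44, 6.58 and 8.41 CPM with sNT8 and 8.05, 9.56 and 8.56 CPM with sCAG. It fell 1.72-fold in HeyA8, and in PC3 the groups overlapped. KIF27, a relative of KIF7, had log2 changes of -0.34 ± 0.11 in HeyA8 (adjusted p = 0.00852; 0.0585 without sCAG B, and 0.000705 to 0.0585 over 15 alternatives) and 0.11 ± 0.11 in PC3 (adjusted p = 0.437). KIF9, a motor of motile cilia and flagella, read 3.92, 4.13 and 4.64 CPM with sNT8 and 4.23, 4.06 and 3.86 CPM with sCAG in HeyA8. In PC3 KIF9 read 8.72, 9.61 and 9.29 CPM with sNT8 and 9.10, 9.15 and 8.78 CPM with sCAG. Its groups overlapped in both lines.

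KIF2A, a depolymerase at spindle poles and in neurites, read 154, 143 and 146 CPM with sNT8 and 96.7, 95.1 and 101 CPM with sCAG in HeyA8. In PC3 KIF2A read 87.2, 96.4 and 92.99 CPM with sNT8 and 71.5, 73.6 and 70.3 CPM with sCAG. It fell 1.55-fold and 1.34-fold, less than any of the 13 mitotic motors as listed; it was listed with the other members. KIF1BP read 46.9, 43.9 and 46.6 CPM with sNT8 and 41.1, 36.9 and 35.7 CPM with sCAG in HeyA8. In PC3 KIF1BP read 92.99, 93.7 and 92.04 CPM with sNT8 and 86.8, 89.8 and 86.1 CPM with sCAG. Its falls, -0.31 ± 0.061 and -0.14 ± 0.046 on the log2 scale, were the smallest falls that passed the test in each line.

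After sG5C, falls and rises were both seen across the family. Of 35 members tested in HeyA8, 13 fell and 12 rose, against 52.5 percent of all genes called, 27.9 percent lower and 24.6 percent higher. Of 37 tested in PC3, 11 fell and 17 rose, against 57.9 percent called, 29.3 percent lower and 28.6 percent higher. The mitotic motors had median log2 fold changes of -0.02 in HeyA8 and -0.01 in PC3, with 5 falling and 2 rising of 13 in HeyA8 and 5 falling and 5 rising in PC3. Among the transport motors, KIF5C and KIF3A rose and KIF1C fell in both lines. KIF21B, counted among the rises in PC3, is a gene that passed the filter there only through its sG5C libraries. Scaling by library totals alone gave 11 falls and 16 rises in HeyA8. The sG5C and sCAG comparisons share their sNT8 libraries.

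KIF5C (hg38, chromosome 2, 148875250 to 149026759) rose most in HeyA8 and, among members well above the count floor, in PC3. In HeyA8 sG5C it read 31.2, 33.6 and 30.8 CPM, against 4.06 to 4.77 in the controls. In PC3 sG5C KIF5C read 254, 267 and 272 CPM. Every sG5C library was above every control, 7.25-fold in HeyA8 (log2 2.86 ± 0.094 SE, adjusted p = 5.84e-21) and 4.93-fold in PC3 (2.30 ± 0.058, adjusted p = 1.86e-22). KIF3A, the other motor subunit of heterotrimeric kinesin-2, read 35.9, 36.4 and 37.1 CPM with sNT8 and 67.7, 69.5 and 73.4 CPM with sG5C in HeyA8. In PC3 KIF3A read 21.9, 19.3 and 21.7 CPM with sNT8 and 55.01, 52.4 and 52.9 CPM with sG5C. It rose 1.95-fold and 2.56-fold without overlap. KIF5B read 608, 613 and 632 CPM with sG5C in HeyA8 and 309, 313 and 296 in PC3. Those are rises of 1.49-fold and 1.76-fold, with all libraries above their controls.

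Smaller rises in both lines were seen for KIF1B, KIF3B, KIF2A, KIF1BP and KIF7. KIF1B read 222, 221 and 222 CPM with sG5C in HeyA8 and 192, 197 and 194 in PC3, log2 changes of 0.44 ± 0.052 and 0.54 ± 0.054. KIF3B read 149.8, 161 and 157 CPM in HeyA8 and 208, 202 and 192 in PC3, changes of 0.31 ± 0.055 and 0.51 ± 0.057. For both genes every sG5C library lay above every control. KIF2A read 192, 201 and 211 CPM in HeyA8 and 185, 169.7 and 164 in PC3, changes of 0.47 ± 0.056 and 0.91 ± 0.062. KIF1BP read 64.7, 65.1 and 61.98 CPM in HeyA8 and 192, 176 and 168 in PC3, changes of 0.50 ± 0.060 and 0.95 ± 0.060. In PC3 KIF1BP was 1.93-fold above its controls. KIF7 read 20.1, 17.8 and 17.2 CPM in HeyA8 and 11.2, 12.7 and 13.8 in PC3, rises of 2.06-fold and 1.62-fold without overlap.

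Short RNAs can act like microRNAs through pairing of their seed with 3′ UTRs. The sequence of sG5C was not given in these sources; if its name is read as a seed of G bases and a final C, the complement is GCCCCC. That reading was not tested. GCCCCC was in the longest 3′ UTR (GENCODE 29) of 10 of the 43 members (23.3 percent) and of 28.1 percent of 19684 protein-coding genes. The sites below, each with 10 bases on either side, 5′ to 3′ on the transcript, belong to members that fell after sG5C in at least 1 line, and to KIFC3, which rose in PC3. Capitals mark GCCCCC.
KIF1C site (chromosome 17, position 2764 of a 4250-base 3′ UTR): tagtgagactGCCCCCcccatctcta
KIF3C site (chromosome 2, position 1853 of 2382): acccaaatcaGCCCCCccagtccgag
KIF24 first site (chromosome 9, position 806 of 1999): tcactacccaGCCCCCtcatggaata
KIF24 second site (position 1801): acaccacatgGCCCCCccactcccat
KIF9 site (chromosome 3, position 87 of 626): cagagctgcaGCCCCCtctactccaa
KIFC3 site (chromosome 16, position 381 of 717): gagctggccaGCCCCCtccttagggg
KIF13B, KIF21B, KIF26B, KIFC2 and KIF6 also had a match.

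KIF1C had the largest fall after sG5C in both lines. It read 198, 195 and 199.6 CPM with sNT8 and 62.99, 61.7 and 63.1 CPM with sG5C in HeyA8. In PC3 KIF1C read 205, 189.5 and 187 CPM with sNT8 and 51.4, 47.5 and 51.3 CPM with sG5C. The groups were far apart, 3.11-fold in HeyA8 (log2 -1.64 ± 0.053, adjusted p = 4.67e-21) and 3.85-fold in PC3 (-1.94 ± 0.061, adjusted p = 1.63e-20). KIF3C, a kinesin-2 subunit that can pair with KIF3A, read 69.1, 64.4 and 61.4 CPM with sNT8 and 34.6, 38.4 and 40.7 CPM with sG5C in HeyA8. In PC3 KIF3C read 32.8, 31.1 and 30.1 CPM with sNT8 and 20.5, 19.3 and 17.7 CPM with sG5C. It fell 1.69-fold and 1.63-fold without overlap. With sCAG, KIF3C read 46.4, 40.6 and 42.9 CPM in HeyA8 (log2 -0.62 ± 0.061) and 31.2, 36.7 and 34.1 in PC3 (0.06 ± 0.066, adjusted p = 0.502). KIF26B was low with sG5C, at 0.901, 0.727 and 0.656 CPM in HeyA8 and 3.63, 3.97 and 4.82 in PC3. It fell by 1.56 and 0.51 on the log2 scale, with no overlap.

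Other falls were seen in 1 line. KIF13B read 33.3, 31.1 and 30.3 CPM with sG5C in HeyA8, 1.75-fold lower (adjusted p = 5.98e-12). In PC3 KIF13B read 12.4, 11.8 and 12.9 CPM, a log2 change of -0.21 ± 0.091 (adjusted p = 0.0514, 0.0443 with the replicate letter as a block, and 0.0145 to 0.185 over 15 alternatives). KIF24 read 11.00, 9.83 and 9.08 CPM in HeyA8 (-0.17 ± 0.097, adjusted p = 0.152) and 12.9, 12.8 and 12.1 in PC3, 1.76-fold lower without overlap (adjusted p = 2.71e-09). KIF9 read 2.93, 3.78 and 3.64 CPM in HeyA8 (-0.28 ± 0.15, adjusted p = 0.117) and 4.996, 5.45 and 5.13 in PC3, 1.76-fold lower (adjusted p = 4.43e-07), with 17.9 percent of its exon bases in other genes. KIF21A fell in HeyA8, where it read 54.1, 53.4 and 55.1 CPM (-0.45 ± 0.058). In PC3 KIF21A read 102, 107 and 100.04 CPM and overlapped its controls. KIF26A fell in PC3, where it read 1.09, 0.5003 and 0.718 CPM (log2 -1.54 ± 0.25, adjusted p = 6.18e-06). KIF26A has no GCCCCC match in its 3′ UTR and 14 in its coding sequence. Coding matches were not counted over all genes, and their part in the fall was not tested. KIF17 read 0.394, 0.785 and 0.410 CPM in HeyA8 and 2.43, 1.97 and 2.20 in PC3 and did not pass the test in either line (adjusted p = 0.313 and 0.272; in PC3 0.0463 without sNT8 B, and 0.0463 to 0.763 over 15 alternatives).

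Of the 9 tested members with a GCCCCC match, 5 fell and 1 rose in HeyA8 (median log2 change -0.76), and 5 fell and 2 rose of 9 in PC3 (median -0.51). Without KIF21B, tested in PC3 only through its sG5C libraries, 5 fell and 1 rose of 8 (median -0.61). Among members without a match, 8 of 26 fell and 11 rose in HeyA8 (median 0.07), and 6 of 28 fell and 15 rose in PC3 (median 0.16). Over all protein-coding genes with a match, 46.7 percent fell in HeyA8 and 45.2 percent in PC3, against 32.2 and 30.3 percent without one. Of these genes, 22.9 and 28.8 percent rose with a match and 30.6 and 39.5 percent without one. The matched 3′ UTRs of kinesin genes were also longer, with a median of 2382 bases against 852.5. Over all protein-coding genes tested the medians were 1965 against 1099 bases in HeyA8 and 1949 against 1081 in PC3. Match and length cannot be told apart here in either set. CTGCTG, complementary to repeated CAG, was in 23 of 43 members (53.5 percent, against 46.3 percent of all protein-coding genes). After sCAG, 14 of 19 members with CTGCTG fell in HeyA8 and 12 of 16 without it (73.7 and 75 percent), and in PC3 61.1 and 70.6 percent fell. No member had a run of 6 or more CTG units, and 0.528 percent of all genes had one.

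**Figure D4:**
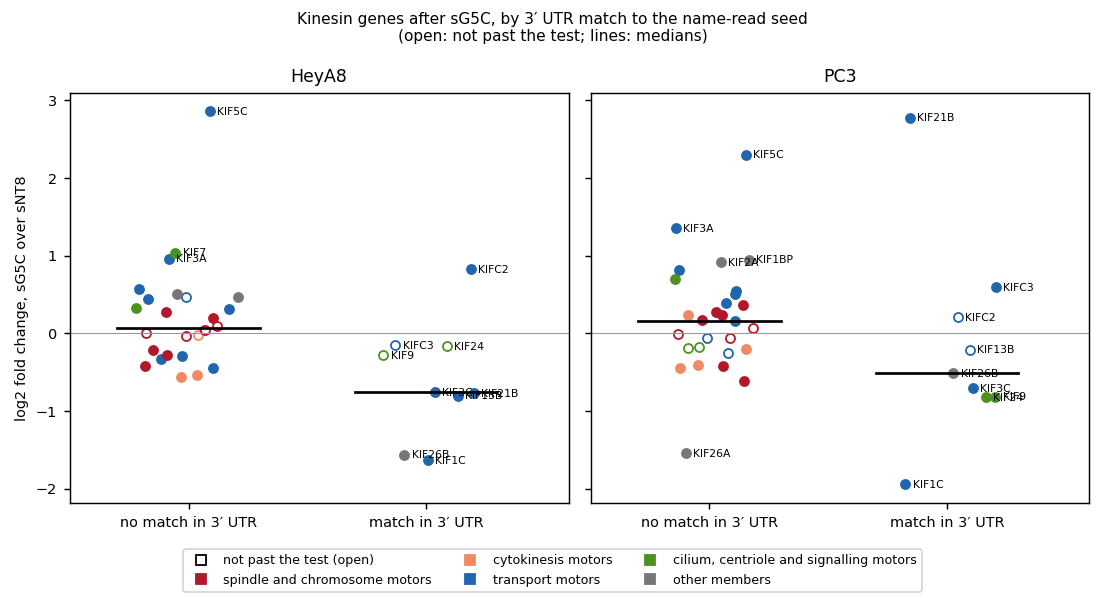
Log2 fold change of kinesin genes after sG5C (y axis) in HeyA8 (left) and PC3 (right), split by whether the longest 3′ UTR holds GCCCCC; filled points passed the test, lines mark medians and colours the role. Medians with a match are -0.76 and -0.51 (the latter with KIF21B, -0.61 without it), without one 0.07 and 0.16; KIFC2 in HeyA8 and KIFC3 in PC3 rose and hold a match.

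KIF16B, KIF13A and KIF18A changed in opposite directions in the lines after sG5C. KIF21B read 6.28, 4.595 and 6.37 CPM in HeyA8, 1.70-fold lower. In PC3 KIF21B read 0.983, 0.667 and 0.769 CPM, above the 0.0286 to 0.203 CPM of the controls. These PC3 values rest on at most 36 reads a library and the gene passed the filter only through its sG5C libraries, so its call follows from the filter and no fold is given. KIF16B read 7.09, 5.93 and 5.99 CPM in HeyA8 (-0.29 ± 0.11, adjusted p = 0.032) and 44.4, 45.3 and 44.4 in PC3 (0.39 ± 0.067, adjusted p = 1.38e-05). The HeyA8 fall of KIF16B missed the threshold in edgeR, in DESeq2 and without any 1 of 4 libraries (adjusted p of 0.0139 to 0.259 over 15 alternatives). KIF13A read 64.7, 61.5 and 61.1 CPM in HeyA8 (-0.32 ± 0.058) and 68.4, 65.99 and 63.3 in PC3 (0.16 ± 0.062). Its PC3 rise (adjusted p = 0.0341) missed the threshold when any of 5 of the 6 libraries was left out (adjusted p of 0.0155 to 0.132 over 15 alternatives). The difference between lines was 0.69 ± 0.12 for KIF16B and 0.50 ± 0.074 for KIF13A (adjusted p = 1.57e-05 and 1.2e-06).

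KIFC2 read 20.8, 19.1 and 18.8 CPM with sG5C in HeyA8, 1.77-fold above the controls. In PC3 KIFC2 read 22.8, 23.7 and 28.1 CPM and overlapped its controls, of which library A was highest (log2 0.21 ± 0.095, adjusted p = 0.0668, 0.0273 with the replicate letter as a block, 0.00541 without that library, and 0.00541 to 0.326 over 15 alternatives). KIFC3 read 38.5, 34.6 and 36.7 CPM in HeyA8 (-0.15 ± 0.065, adjusted p = 0.0504, and 0.0277 to 0.816 over 15 alternatives) and 75.98, 78.4 and 77.4 in PC3, a rise of 1.51-fold (adjusted p = 3.27e-09). The difference between lines was 0.76 ± 0.082 (adjusted p = 1.88e-09).

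**Figure D5:**
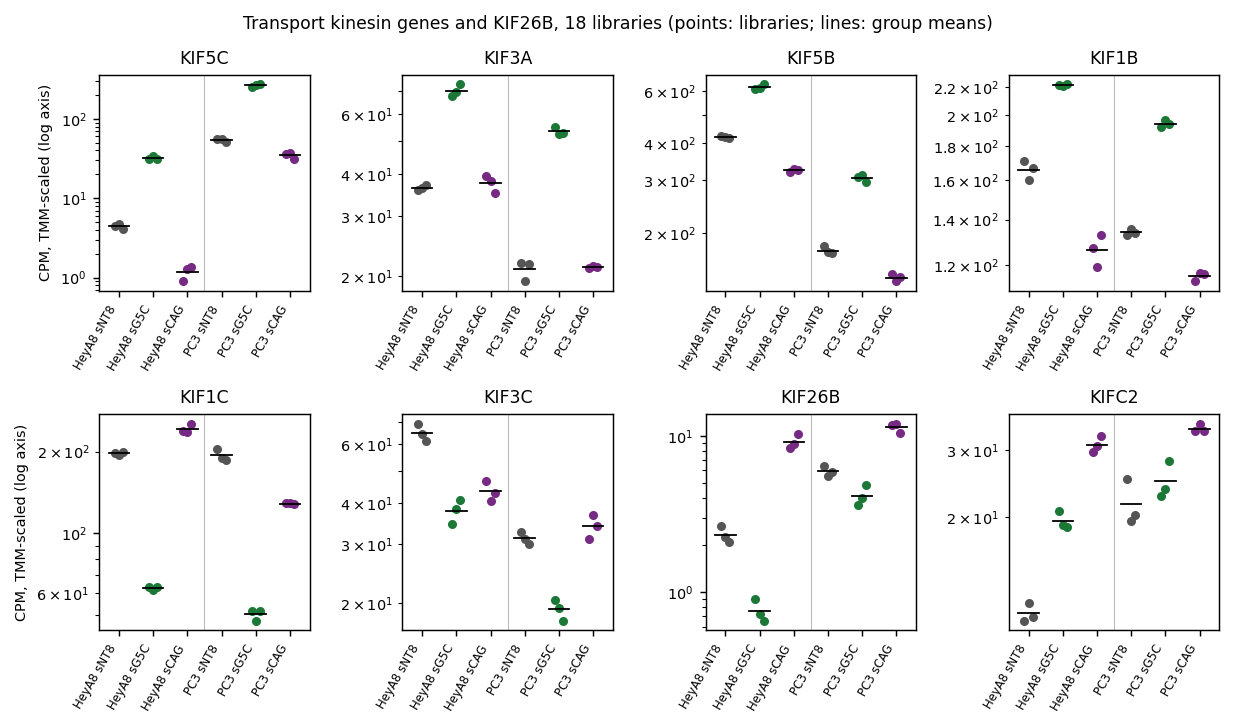
Level of 7 transport kinesin genes and KIF26B in each of the 18 libraries (CPM, TMM-scaled, log axis), points for libraries and lines for group means. KIF5C, KIF3A, KIF5B and KIF1B are highest with sG5C in both lines, and KIF1C and KIF3C have their lowest means with it; KIF26B and KIFC2 are highest with sCAG.

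Among the 13 measured mitotic motors as listed, log2 changes after sG5C lay between -0.62 and 0.37; KIF2A, listed among the other members though it also acts at spindle poles, changed by 0.47 and 0.91, outside that range. KIF11 read 129.8, 129 and 119 CPM in HeyA8 and 85.3, 84.7 and 80.7 in PC3, falls of 1.34-fold and 1.34-fold with no library reaching a control. KIF14 read 85.3, 78.1 and 69.04 CPM in HeyA8 and 82.2, 87.1 and 77.3 in PC3, falls of 1.45-fold and 1.36-fold. KIF20A read 119, 113 and 114 CPM in HeyA8 and 74.4, 70.5 and 63.4 in PC3, log2 changes of -0.56 ± 0.055 and -0.20 ± 0.065 (adjusted p = 5.22e-10 and 0.00866; in PC3 0.0583 without sG5C C, and 0.000363 to 0.0583 over 15 alternatives). These 3 genes fell in both lines. KIF15 read 45.3, 45.9 and 45.6 CPM in HeyA8, among its controls, and 32.2, 33.5 and 33.8 in PC3, 1.53-fold lower. KIF20B read 117, 121 and 117 CPM in HeyA8 (-0.02 ± 0.055) and 54.6, 59.2 and 50.1 in PC3 (-0.41 ± 0.066). KIF2C read 147, 153 and 151 CPM in HeyA8, a change of -0.28 ± 0.053, and 66.9, 62.1 and 62.1 in PC3 (-0.01 ± 0.063). Thus KIF15 and KIF20B fell in PC3, where KIF2C overlapped its controls, and KIF2C fell in HeyA8, where the other pair overlapped theirs.

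KIF18A fell in HeyA8 and rose in PC3. It read 86.6, 88.9 and 81.8 CPM in HeyA8 (-0.22 ± 0.059, adjusted p = 0.00283) and 36.9, 36.1 and 35.6 in PC3 (0.37 ± 0.070, adjusted p = 4.75e-05). With scaling by library totals alone the HeyA8 change was -0.08 (adjusted p = 0.153; 0.00128 to 0.153 over 15 alternatives). The difference between lines was 0.61 ± 0.089 (adjusted p = 9e-07). KIF18B read 147, 133 and 131 CPM in HeyA8 and 146, 139 and 150.4 in PC3, rises of 0.20 ± 0.056 and 0.17 ± 0.058; the PC3 rise had adjusted p = 0.0115, 0.0776 without sNT8 B, and 0.0046 to 0.0776 over 15 alternatives. KIF4A read 72.2, 73.1 and 68.8 CPM in HeyA8 and 126, 127 and 121 in PC3. KIFC1 read 94.1, 87.7 and 86.5 CPM in HeyA8 and 57.2, 53.5 and 56.9 in PC3, and KIF23 read 105, 104 and 106 CPM in HeyA8 and 92.1, 83.7 and 79.2 in PC3. Each of these rose in PC3, by 0.28, 0.24 and 0.24 on the log2 scale, and overlapped their controls in HeyA8. KIF22 read 63.9, 64.7 and 62.2 CPM in HeyA8, a rise of 0.28 ± 0.059, and 56.9, 55.7 and 55.4 in PC3 (-0.05 ± 0.062, adjusted p = 0.472). Over the family, the sG5C effect differed between lines for 26 of 38 members, 9 lower and 17 higher in PC3, against 32.8 percent of all genes, 14.6 percent lower and 18.3 percent higher. The 17 include KIF21B, which has at most 36 reads in any PC3 library. Scaling by library totals alone gave 10 higher.

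With sCAG set directly against sG5C, 26 of 35 members were lower and 6 higher with sCAG in HeyA8, where 65.2 percent of all genes were called, 33.4 percent lower and 31.9 percent higher. In PC3, 25 of 38 were lower and 8 higher, where 62.8 percent were called, 31.1 percent lower and 31.7 percent higher. The 25 include KIF21B, which passed the filter in PC3 only through its sG5C libraries, so that call follows from the filter. All 13 measured mitotic motors were lower with sCAG in both lines, with differences of -7.40 to -1.81 in HeyA8 and -2.17 to -0.94 in PC3 (log2, edgeR, adjusted p at most 1.43e-14 and 2.96e-11). Among them, KIF4B was near the count floor in HeyA8 sCAG. KIF5C was 28.2-fold lower with sCAG in HeyA8 and 7.89-fold lower in PC3, where it was the largest fall of the family. KIF1C was 3.72-fold and 2.46-fold higher with sCAG, and KIF26B 11.5-fold and 2.64-fold. KIF26A was 39.6-fold higher in PC3. KIF16B was lower in both lines, by -0.28 ± 0.12 and -0.73 ± 0.067; the HeyA8 call had adjusted p = 0.0373 and missed the threshold in DESeq2 and without HeyA8 sG5C A, sCAG B or sCAG C (adjusted p of 0.000489 to 0.176 over 13 alternatives).

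Genes that work with these motors were counted from lists by function. The shares of all genes called lower and higher, against which these counts are read, were 30 and 29.3 percent (HeyA8 sCAG), 23.1 and 27.4 percent (PC3 sCAG), 27.9 and 24.6 percent (HeyA8 sG5C), and 29.3 and 28.6 percent (PC3 sG5C). Of 17 spindle partners, 15 fell and 1 rose after sCAG in each line, with medians of -4.85 in HeyA8 and -1.37 in PC3. CENPE, the kinetochore kinesin, changed by -5.31 ± 0.10 and -1.49 ± 0.052. RACGAP1, the partner of KIF23, changed by -3.96 ± 0.092 and -1.37 ± 0.050, AURKB, the kinase that KIF20A carries, by -4.85 ± 0.084 and -2.19 ± 0.076, and TPX2, which binds KIF11 and KIF15, by -4.91 ± 0.057 and -1.21 ± 0.043. MAPRE1, a protein of growing microtubule ends, was the partner that rose in HeyA8 (0.19 ± 0.042), and NUMA1, which anchors dynein at spindle poles, the one that rose in PC3 (0.21 ± 0.048). After sG5C, 9 spindle partners fell and 6 rose in HeyA8, and 4 fell and 12 rose in PC3, with medians of -0.19 and 0.22.

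Of 5 kinesin subunits, 2 fell and 1 rose after sCAG in HeyA8 and 2 fell in PC3. KIFAP3, the third subunit of kinesin-2, changed by -0.82 ± 0.072 and -0.49 ± 0.080 after sCAG and by 0.20 ± 0.069 and 0.56 ± 0.079 after sG5C. After sG5C, 1 subunit fell and 2 rose in HeyA8 and 1 fell and 1 rose in PC3. KLC4, a kinesin light chain, changed by -0.67 ± 0.091 in HeyA8, and KLC2, another light chain, by -0.96 ± 0.076 in PC3. Of 19 measured cargo adaptors, 4 fell and 9 rose after sCAG in HeyA8. In PC3, 4 of 18 fell and 10 rose. The shares that fell, 21.1 and 22.2 percent, were below the 30 percent of all genes in HeyA8 and near the 23.1 percent in PC3. The shares that rose, 47.4 and 55.6 percent, were above the 29.3 and 27.4 percent of all genes. MAP7, which recruits kinesin-1 to microtubules, changed by -1.16 ± 0.20 and -0.67 ± 0.075. After sG5C, 8 of 19 adaptors fell and 5 rose in HeyA8, and 7 fell and 7 rose in PC3; MAP7D1, a relative of MAP7, changed by -1.53 ± 0.060 and -1.34 ± 0.077. Medians of the adaptors lay between -0.12 and 0.15 in all 4 comparisons with sNT8.

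Dynein, which walks the other way, and its cofactor dynactin were counted as 22 measured genes. After sCAG, 4 fell and 15 rose in HeyA8 and 6 fell and 14 rose in PC3, with medians of 0.22 and 0.20, where 29.3 and 27.4 percent of all genes rose. After sG5C, 9 fell and 4 rose in HeyA8, and 5 fell and 13 rose in PC3, with medians of -0.04 and 0.22. The intermediate chain gene DYNC1I1 changed by -0.78 ± 0.19 and -1.66 ± 0.14 after sCAG and by 0.87 ± 0.15 and 0.80 ± 0.11 after sG5C. All 12 tubulin genes fell in PC3 after sCAG, with a median of -0.84, while 6 fell and 3 rose in HeyA8, with a median of -0.24, against 23.1 percent of all genes lower in PC3 and 30 percent in HeyA8. TUBA1B, an abundant alpha-tubulin, changed by -1.86 ± 0.063 and -1.19 ± 0.044. After sG5C, 4 tubulin genes fell and 5 rose in each line. Tubulin genes are similar in sequence, so reads may be split between them.

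The remaining members were low. KIF1A, KIF5A, KIF19, KIF25 and KIF2B, mostly motors of neurons, cilia or testis, passed the filter in no comparison and had at most 8 reads in any library. KIF12 and KIF6 had at most 2 and 0 reads in HeyA8 libraries and at most 18 and 19 in PC3 libraries. KIF12 was tested in PC3 after sG5C, where it had a log2 change of -0.19 ± 0.45 (adjusted p = 0.746). KIF4B and KIF27, both low, had sG5C changes of 0.09 ± 0.14 and 0.33 ± 0.097 in HeyA8 and 0.07 ± 0.12 and -0.18 ± 0.12 in PC3, of which only the KIF27 rise in HeyA8 passed the test (adjusted p = 0.00539).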

How the data were processed

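Total RNA of 18 libraries was sequenced, 3 for each of 6 groups. RNA was prepared on a column with DNase digestion and libraries with a TruSeq kit for total RNA, per the labels' protocols. Reads were processed with TopHat, Bowtie2, HTSeq and DESeq2 on hg38, per the submitters' processing notes; their versions and the strand setting were not stated in these sources. The 4 deposited tables of 58395 genes each hold, per the file headers, a signal, here normalized counts, for 6 libraries. They also hold the authors' log2 fold change, deposited test score, and deposited p-value with its adjusted p, none of which is used as a result. All deposited values (100 percent, within 1e-06) were whole multiples of 1 step per library, which gave whole reads. Totals ran from 31232377 to 41384838 reads, so genes of a few reads are imprecise. Replicate pairs differed beyond sampling noise, the chi-square statistic over genes being 3.29 to 7.26 times its degrees of freedom.

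Each short RNA was compared with sNT8 by limma 3.58.1 (limma-trend, robust, log2 of the deposited value plus 1, the 6 libraries of the table). Fold changes are on that scale and understate changes of low genes. sCAG against sG5C (9 libraries of a line) and comparisons of lines (18 libraries) used edgeR 4.0.16 on the recovered reads (quasi-likelihood, TMM); the SE given for these is the size of the log2 fold change divided by the square root of F. Genes passed filterByExpr with a minimum count of 10, fits ran over all genes, and calls had a Benjamini-Hochberg adjusted p under 0.05. R 4.3.3 and Python 3.11.15 were used. Simulated data were fitted only for HeyA8 sCAG against sNT8 and for the sCAG effect between lines. They held far fewer changed genes than were called here, with rises and falls balanced, so the fits were not tested under conditions like these data.

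The members, their role lists and the partner lists were chosen with earlier results of these data known. Values in every library are given for a set of members by role and for the 4 lowest and 4 highest called members of each comparison with at least 5 CPM. Alternatives were other scalings, pseudocounts, filters and tools, a replicate block and leaving out each library. Same-letter libraries of PC3 sNT8 and PC3 sG5C deviated together (correlations of 0.124, 0.185 and 0.109 over 15822 genes), so the block is given beside the 2 calls it changed there. Correlations were alike in some other groups, as in PC3 sNT8 and PC3 sCAG (0.245, 0.145 and 0.0927). The labels do not say that the letters pair libraries. Per-length levels use GENCODE 29 exons, and 3′ UTRs are those of its transcripts.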

Additional observations from a re-analysis of the deposited data

Results flagged for a closer look

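Each value here is a difference between the lines in the log2 fold change against sNT8, PC3 minus HeyA8, tested in edgeR over 18 libraries and past an adjusted p of 0.05. After sCAG the difference was 5.29 for KIF18B, 5.11 for KIF20A, 4.92 for KIF4A and 4.44 for KIF15, all of which fell in both lines and further in HeyA8. It was -1.04 for KIF26B, -1.63 for KIF17 and -0.824 for KIFC2, which rose in both lines and less in PC3. KIF1C (-0.896) and KIF3B (-0.593) rose in HeyA8 and fell in PC3.

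After sG5C the difference was -0.638 for KIF24 and -0.607 for KIF15, which fell in PC3 and did not pass the test in HeyA8. It was 1.10 for KIF26B, which fell in both lines and less in PC3, and 0.763 for KIFC3, which rose in PC3. It was -0.544 for KIF5C, which rose in both lines and more in HeyA8, and -0.604 for KIFC2, which rose in HeyA8. KIF18A (0.608), KIF13A (0.50) and KIF16B (0.692) fell in HeyA8 and rose in PC3. KIF21B (3.53) fell in HeyA8. In PC3 it has at most 36 reads a library and passed the filter of the comparison with sNT8 only through its sG5C libraries. No rise is read there, and its difference, which rests in part on those libraries, is not read either. The HeyA8 fall of KIF18A missed the threshold with scaling by library totals alone, and the PC3 rise of KIF13A and the HeyA8 fall of KIF16B depend on single libraries.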

How the results depend on the processing

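Of 5279 comparisons of a result with an alternative, 5126 kept direction and side of the threshold, 55 newly passed it, 92 missed it, 5 changed sign and 1 count moved by over 1.5 times. Scaling by library totals alone accounts for all sign changes: KIF3B after sCAG in HeyA8 (-0.0101), KIF20B after sG5C in HeyA8 (0.12), the sG5C difference between lines for KIF11 (-0.20), and PC3 against HeyA8 sNT8 for KIF14 (0.24) and KIF1C (0.22). With it the count of members with a higher sG5C effect in PC3 was 10 and not 17, and HeyA8 sG5C had 11 members lower and 16 higher. It moved the median log2 change of all genes to -0.11 (HeyA8 sCAG), 0.14 (HeyA8 sG5C), -0.17 (PC3 sCAG), -0.30 and -0.16 (sCAG against sG5C in HeyA8 and PC3), -0.20 (sG5C effect between lines) and 0.35 (sNT8 between lines), so small changes are relative to the scaling. Higher calls then made up 39.2, 60.6, 34.1, 33.8, 42.2, 32.9 and 64.6 percent of calls in these comparisons, against 49.4, 46.8, 54.3, 48.8, 50.4, 55.7 and 54.1 percent. The cause was not tested.

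Leaving out each library in turn, kinesin genes lower and higher numbered 25 to 26 and 6 to 7 (HeyA8 sCAG), 12 to 14 and 12 (HeyA8 sG5C), 23 to 24 and 5 (PC3 sCAG), and 11 to 12 and 15 to 17 (PC3 sG5C). The replicate block gave 12 lower and 18 higher for PC3 sG5C. Same-letter correlations between groups of a line ran from -0.07 to 0.245, highest for a pair of PC3 sNT8 and PC3 sCAG libraries. Whether the letters pair libraries was not stated in these sources. The block gave 26 and 7, 13 and 12, and 23 and 6 in the first 3 comparisons, and 16 and 14 between the sNT8 groups. Outside PC3 sG5C it changed 6 calls of members, such as KIF13A in PC3 after sCAG (adjusted p = 0.0478). KIF1B (0.17) and KIF2A (0.23) in the sCAG effect, KIFC1 (0.22) in the sG5C effect, KIF27 (0.30) in PC3 sCAG against sG5C and KIF22 (0.13) between the sNT8 groups lost their calls in several alternatives.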
